A study of Arabidopsis thaliana with 8 samples.

Results

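The SAUR genes (small auxin up RNA) are described here in shoots and roots of Arabidopsis thaliana Col-0. They were taken as every gene whose symbol in the deposited table begins with SAUR and a number, which gave 25 of the 33199 genes of the table. RNA sequencing was done on 4 shoot and 4 root samples, and both tissues carried the same Col-0 genotype with no treatment named. How old the plants were, how they were grown and when they were harvested is not stated in the sources used here. Levels are FPKM, that is, fragments scaled to gene length in kilobases and to the library size the authors used, so levels of different genes can be set side by side.

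SAUR genes encode small plant proteins, and many of them are switched on within minutes when auxin is added. In the acid growth scheme, SAUR19 and its relatives inhibit PP2C.D phosphatases, which would otherwise dephosphorylate and turn down the proton pumps of the plasma membrane. Active pumps acidify the cell wall, and the wall loosens as the cell elongates. Other SAUR genes also respond to light, brassinosteroids, ethylene or age.

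The reads assigned to genes numbered 10044638 to 11662309 in the shoot libraries and 9857791 to 12460762 in the root libraries. Over the 25 genes, 3 reads in a library corresponded to 0.156 to 0.639 FPKM. The labelled tissues carried their marker genes. All 10 shoot markers, photosynthesis genes, were higher in shoot, with summed levels of 75984 to 96966 FPKM in shoot and 133 to 542 in root, and all 8 root markers were higher in root, with sums of 2.45 to 7.91 FPKM in shoot and 699 to 799 in root. The root markers COBL9, PLT1 and IRT1 had 0 reads in shoot. Whether the 4 samples of a tissue were grown separately is not stated in the labels, so p-values reflect only how far these samples spread, and that spread may be technical. In whole tissue, fewer cells of a type and less RNA per cell cannot be told apart.

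Most of the 25 genes that the table names SAUR stood higher in shoot, and a smaller set stood higher in root. Of the 25 genes, 24 reached 0.5 FPKM in 4 or more libraries and were tested with limma on log2(FPKM + 0.5) over all 20314 genes that passed. At an adjusted p under 0.05, 19 were higher in shoot, where 32% of all tested genes were, and 4 were higher in root, where 37.6% were, and 69.6% of all tested genes were called in either direction. SAUR77 was not called, and SAUR40 was not tested. For 23 of the 25 genes the shoot and root levels did not overlap, which held for 64.8% of the genes tested. The median log2 fold change, root minus shoot, of the 24 tested genes was -2.78, or -2.90 with the 2 genes without a root read at their bound, against 0.07 over all tested genes. It was -4.27 with a pseudocount of 0.1 and -4.58 with limma-voom on the recovered reads. Of the 24, 11 were under 0.5 FPKM in every root library and so passed the filter through the shoot libraries alone, which required them to differ between the tissues. Of all 20314 tested genes, 648 were of this kind. The 11 were SAUR10, SAUR15, SAUR19, SAUR20, SAUR22, SAUR23, SAUR24, SAUR28, SAUR63, SAUR64 and SAUR71. The adjusted p-values of these 11, here and below, add no support for a difference.

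**Figure D1:**
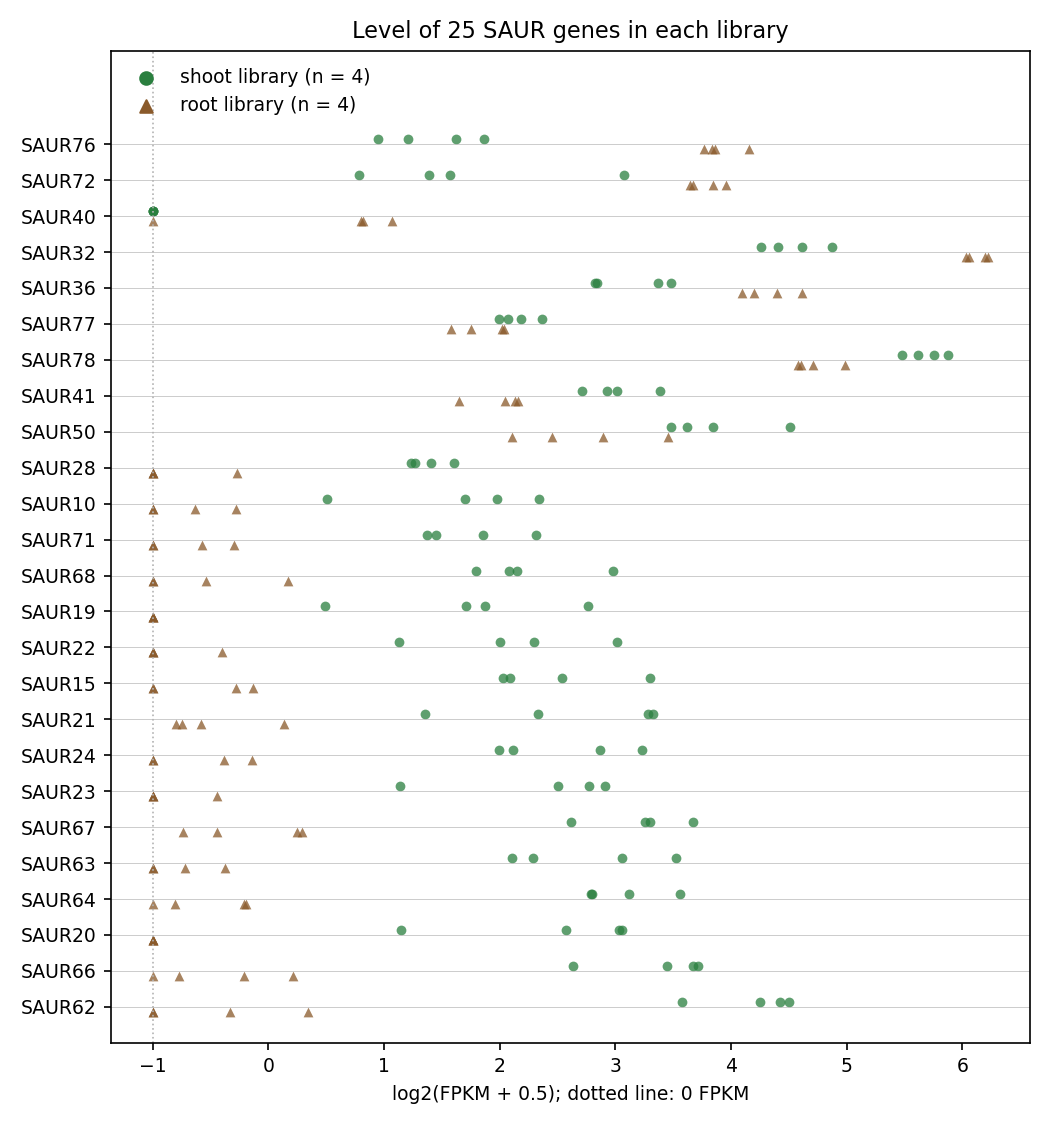
Level of each of the 25 SAUR genes in each library, as log2(FPKM + 0.5), with shoot libraries as green circles and root libraries as brown triangles (n = 4 each); the dotted line marks 0 FPKM. SAUR76, SAUR72, SAUR32 and SAUR36 lie to the right in root, SAUR40 and SAUR77 overlap, and the other 19 lie to the right in shoot.

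Added up, the 25 genes gave 169, 259, 200 and 233 FPKM in shoot libraries 1 to 4 against 164, 159, 156 and 160 in the root libraries in the same order. On the authors' scaling, the root sums lay within a narrow band below every shoot sum. The means were 215 ± 39.5 for shoot and 160 ± 3.53 for root (SD, n = 4). That scaling put library sizes below the recovered reads in shoot and above them in root. It thus raised the shoot sums against the root sums. With library totals alone, the sum of shoot library 1 fell below that of every root library. The mean root sum then lay above the mean shoot sum, so the order of the means held on the authors' scaling only. The genes called in each direction were also summed apart. The calls used these same levels, so each set by construction stood higher in its own tissue. The 4 genes higher in root made up 117 ± 6.0 FPKM of the root sum and 37.1 ± 5.75 of the shoot sum. The 19 genes higher in shoot made up 174 ± 38.1 FPKM in shoot and 38.6 ± 3.1 in root.

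SAUR19 to SAUR24, whose products are known inhibitors of PP2C.D phosphatases, lay in 1 stretch of 21.5 kb on chromosome 5 (5962773 to 5984308 in TAIR10), with SAUR19, SAUR20 and SAUR22 on the minus strand and SAUR21, SAUR23 and SAUR24 on the plus strand. Their coding sequences were 267 to 276 bases long, in a single exon, and 87.7% to 95.2% identical over the 15 pairs (median 91.2%). The first 54 coding bases are shown because they make visible how alike these genes are. They were read from RefSeq's TAIR10.1 assembly, and capitals mark a base that differs from SAUR21 at the same position.
SAUR19: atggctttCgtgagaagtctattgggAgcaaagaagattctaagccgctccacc
SAUR20: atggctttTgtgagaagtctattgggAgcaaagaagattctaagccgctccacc
SAUR21: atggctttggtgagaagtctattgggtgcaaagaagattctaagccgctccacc
SAUR22: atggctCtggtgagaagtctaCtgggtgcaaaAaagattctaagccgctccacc
SAUR23: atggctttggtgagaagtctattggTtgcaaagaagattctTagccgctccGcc
SAUR24: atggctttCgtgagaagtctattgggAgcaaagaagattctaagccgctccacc
SAUR19 and SAUR24 were the same over these bases. No stretch of 150 bases, the length of 1 read, was shared whole between a gene of this group and any other SAUR gene.

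All 6 genes of this group were higher in shoot, and their root levels lay at or near 0. SAUR20 (AT5G18020) stood at 1.72, 7.67, 5.47 and 7.81 FPKM in the shoot libraries, here and throughout in the order 1 to 4, and had 0 reads in every root library. With 118 shoot reads against none, its shoot level exceeded by at least 61.3-fold that of 3 reads over the 4 root libraries (log2 fold change -3.45, SE 0.37, limma adjusted p = 9.56e-06). SAUR19 (AT5G18010) had 0.909, 2.76, 3.16 and 6.29 FPKM in shoot and likewise no root read, which put shoot at least 37.3-fold higher by the same measure (log2 fold change -2.71, SE 0.38, limma adjusted p = 8.73e-05). These were the only members of the 25 with no root read.

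SAUR21 (AT5G18030) had the highest mean of the group in shoot, at 2.06, 9.53, 4.52 and 9.21 FPKM, and was the only one with reads in all 4 root libraries, at 0.0762, 0.602, 0.168 and 0.0983 FPKM. Shoot library 1 was low and libraries 2 and 4 were high, and no root library reached the lowest shoot library (log2 fold change -3.07, SE 0.42, limma adjusted p = 6.21e-05). SAUR24 (AT5G18080) read 3.49, 6.79, 3.83 and 8.87 FPKM in shoot and 0.409, 0.269, 0 and 0 in root (a log2 fold change of -3.18, SE 0.31, limma adjusted p = 4.73e-06). SAUR22 (AT5G18050) ranged from 1.69 to 7.60 FPKM in shoot, and its 3 root reads all fell in root library 1. SAUR23 (AT5G18060), at 1.70 to 7.01 FPKM in shoot, also had 3 root reads, all in root library 1. The ratio of shoot to root level, pooled over libraries, was 57.4 for SAUR22 (95% counting interval 19.2 to 283) and 72.8 for SAUR23 (24.4 to 357). Such intervals and bounds cover counting error only.

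The second set of neighbours lay on chromosome 1 in 2 runs. SAUR62, SAUR63 and SAUR64 filled 4.01 kb (10302585 to 10306595) on the minus strand, and SAUR68, SAUR66 and SAUR67 filled 3.51 kb (10319732 to 10323239) on the plus strand. They belong to the group of SAUR63, a gene whose overexpression lengthens hypocotyls and petals. RefSeq gives the symbol SAUR68 to AT1G29510, which the table names SAUR67; the table's names are kept here. Coding identity over the 15 pairs ran from 61.8% to 89.8% (median 81.9%), and SAUR68 was the most divergent, at 61.8% to 62.5% to the other 5. Of all 150-base stretches, 9.93% in SAUR63, 6.74% in SAUR67 and 1.90% in SAUR62 occurred whole in another SAUR gene, so the split of reads between these copies is uncertain. A gene on the other strand, AT1G29435, overlaps SAUR63 and SAUR64 and had 2 reads in all libraries together.

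All 6 genes of the SAUR63 group were higher in shoot, and they included the largest log2 fold change of the 24 tested genes on the log2(FPKM + 0.5) scale. SAUR62 (AT1G29430) read 11.5, 22.2, 18.6 and 21.0 FPKM in shoot and 0.767, 0, 0 and 0.297 in root. Every shoot library was far above every root library, with means of 18.3 ± 4.80 and 0.266 ± 0.362 (log2 fold change -4.69, SE 0.32, limma adjusted p = 2.24e-07). SAUR66 (AT1G29500) read 5.71, 12.3, 10.4 and 12.6 FPKM in shoot and 0.661, 0, 0.364 and 0.0852 in root (a log2 fold change of -3.81, SE 0.31, limma adjusted p = 1.06e-06). SAUR64 (AT1G29450), the only member of the 25 with 2 exons in its longest model, read 6.41, 8.21, 6.45 and 11.3 FPKM in shoot and 0.0712, 0.375, 0 and 0.367 in root (a log2 fold change of -3.62, SE 0.25, limma adjusted p = 2.35e-07). In both genes shoot library 1 was the lowest of the shoot and still several times above the highest root library.

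SAUR67 (AT1G29510) kept the most root signal of the group, with 0.235, 0.721, 0.689 and 0.101 FPKM against 5.63, 9.33, 9.05 and 12.3 in shoot (log2 fold change -3.37, SE 0.29, limma adjusted p = 1.44e-06). SAUR63 (AT1G29440) ranged from 3.82 to 11.0 FPKM in shoot and had 3 root reads in all, a pooled ratio of 70.8 (95% counting interval 23.7 to 347). SAUR68 (AT1G29490) ranged from 2.98 to 7.38 FPKM in shoot and from 0 to 0.627 in root (a log2 fold change of -2.84, SE 0.32, limma adjusted p = 1.35e-05). Its shoot and root ranges did not overlap. Over the 12 genes of both groups, the mean root level was 0% to 4.82% of the mean shoot level. Summed, the SAUR19 group gave 11.6, 36.6, 26.6 and 46.8 FPKM in shoot and 0.979, 0.871, 0.168 and 0.0983 in root. The SAUR63 group gave 37.5, 66.7, 51.3 and 72.3 in shoot and 2.03, 1.72, 1.05 and 1.12 in root. In both sums shoot library 1 was the lowest and shoot library 4 the highest, and root libraries 1 and 2 were above root libraries 3 and 4. The shoot markers stood at a median of 0.624%, 0.459%, 0.155% and 0.177% of their shoot mean in root libraries 1 to 4, and their part in these root sums was not tested. Without root libraries 1 and 2, 19 SAUR genes were again higher in shoot.

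**Figure D2:**
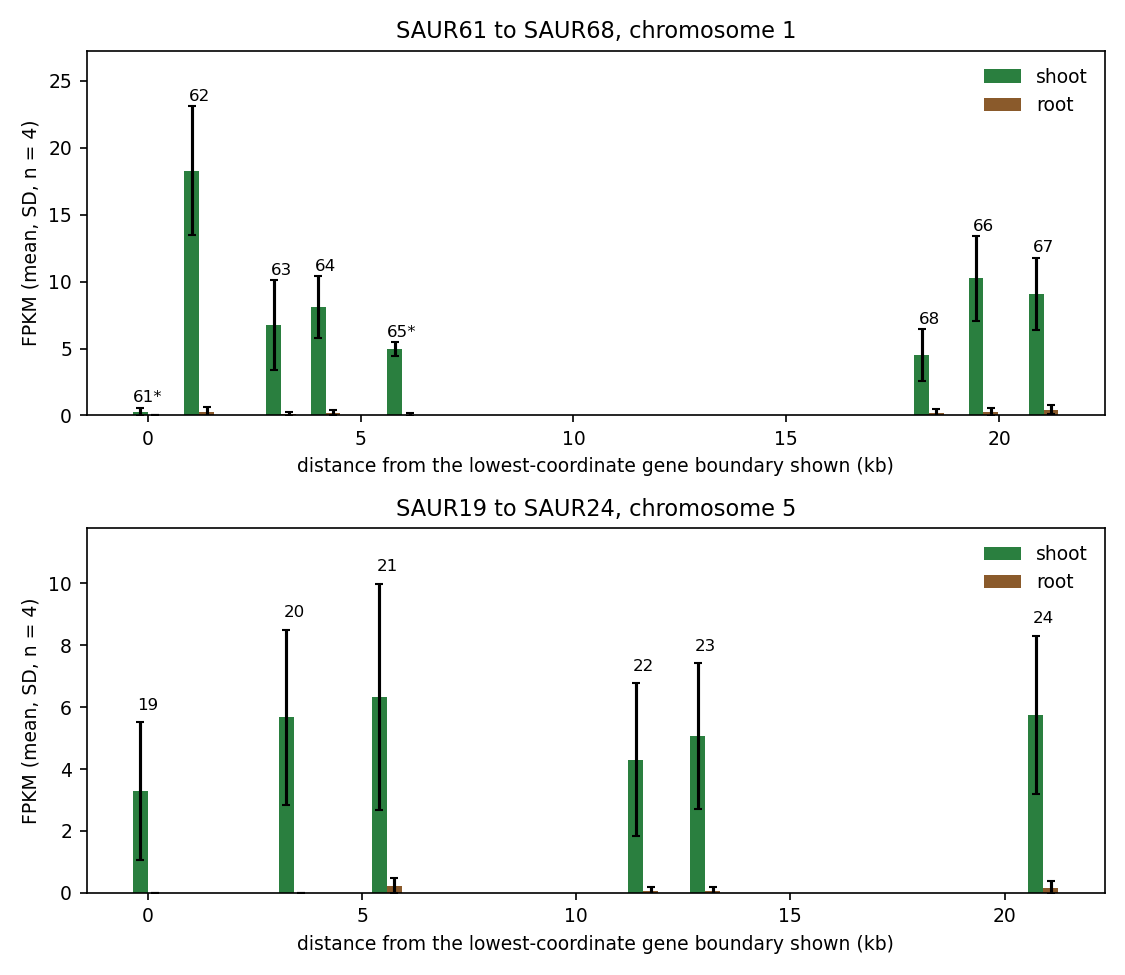
Mean FPKM (bars, with SD, n = 4) of the SAUR genes of the chromosome 1 and chromosome 5 stretches in shoot (green) and root (brown), placed by their distance in kb from the first gene; numbers are SAUR numbers and an asterisk marks a gene whose symbol is from RefSeq and not the table. Root bars stay near 0 along both stretches, while shoot means reach 18.3 FPKM at SAUR62 and 6.33 at SAUR21.

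The 300 bases before the annotated start were searched for 4 motifs on both strands: the auxin response element TGTCTC, bound by auxin response factors, its form TGTCGG, the G-box CACGTG, bound by light-signalling factors among others, and GGTCCCAT, an element known from a soybean SAUR promoter. TGTCTC was in 6 of the 25 windows (24%) and in 13.0% of the 27443 windows of protein-coding genes. GGTCCCAT was in 1 of 25 (4%), against 0.455%, TGTCGG was in 2 of 25 (8%), against 4.91%, and CACGTG was in none, against 7.09%. These are matches of letters and not known binding sites. SAUR62, SAUR66 and SAUR67 are shown because they had TGTCTC and, with SAUR63, shared a run of 14 bases that no other window held. Capitals mark the motifs in either orientation, and coordinates are those of TAIR10.1 from RefSeq.
SAUR62, chr1:10303419-10303718, minus strand: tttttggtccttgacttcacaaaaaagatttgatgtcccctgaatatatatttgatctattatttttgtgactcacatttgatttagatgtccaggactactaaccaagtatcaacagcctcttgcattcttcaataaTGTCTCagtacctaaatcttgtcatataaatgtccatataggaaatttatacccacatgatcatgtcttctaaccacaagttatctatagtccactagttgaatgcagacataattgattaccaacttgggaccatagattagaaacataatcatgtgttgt
SAUR66, chr1:10320711-10321010, plus strand: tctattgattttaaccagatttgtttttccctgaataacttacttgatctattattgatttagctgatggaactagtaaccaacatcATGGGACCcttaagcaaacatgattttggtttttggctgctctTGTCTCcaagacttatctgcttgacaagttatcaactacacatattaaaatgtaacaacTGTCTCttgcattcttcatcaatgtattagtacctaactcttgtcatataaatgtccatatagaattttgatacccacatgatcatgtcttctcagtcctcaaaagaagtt
SAUR67, chr1:10322123-10322422, plus strand: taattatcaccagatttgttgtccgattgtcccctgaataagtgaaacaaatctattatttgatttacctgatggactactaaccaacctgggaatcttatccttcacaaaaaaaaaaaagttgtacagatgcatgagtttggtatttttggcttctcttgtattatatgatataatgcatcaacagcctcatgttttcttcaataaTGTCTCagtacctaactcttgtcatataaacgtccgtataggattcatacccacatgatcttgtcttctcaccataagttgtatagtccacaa
The shared run reads atacccacatgatc and was found in 4 of the 27443 windows, those of SAUR62, SAUR63, SAUR66 and SAUR67. In SAUR66 the capitals include 2 copies of TGTCTC and 1 of GGTCCCAT in the reverse orientation.

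SAUR20 and SAUR22 are shown next because they were the 2 genes of the SAUR19 group with TGTCTC in the window, in the reverse orientation in each case.
SAUR20, chr5:5966786-5967085, minus strand: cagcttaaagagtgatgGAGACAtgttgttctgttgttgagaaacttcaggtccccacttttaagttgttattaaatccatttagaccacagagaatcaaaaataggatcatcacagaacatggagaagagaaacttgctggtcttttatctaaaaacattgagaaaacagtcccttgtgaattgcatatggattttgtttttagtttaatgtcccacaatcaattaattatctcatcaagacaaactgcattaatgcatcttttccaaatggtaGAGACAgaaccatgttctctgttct
SAUR22, chr5:5975088-5975387, minus strand: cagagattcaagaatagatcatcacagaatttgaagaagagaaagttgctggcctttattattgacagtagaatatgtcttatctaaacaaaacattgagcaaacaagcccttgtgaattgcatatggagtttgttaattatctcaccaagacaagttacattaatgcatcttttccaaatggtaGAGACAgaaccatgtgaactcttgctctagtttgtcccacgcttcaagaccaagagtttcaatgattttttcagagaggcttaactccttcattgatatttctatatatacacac
Both held the run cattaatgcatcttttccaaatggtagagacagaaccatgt, 41 bases long, which contains a copy of the element and was in no other window. SAUR15, described further on, was the remaining holder of TGTCTC. All 6 holders were among the 19 genes higher in shoot, which make up most of the 25. Most of those 19 genes had no TGTCTC in the window, and a link of the motif to tissue was not tested. SAUR76 is shown as the tested gene with the largest log2 fold change towards root, and its window held none of the 4 motifs.
SAUR76, chr5:7047447-7047746, minus strand: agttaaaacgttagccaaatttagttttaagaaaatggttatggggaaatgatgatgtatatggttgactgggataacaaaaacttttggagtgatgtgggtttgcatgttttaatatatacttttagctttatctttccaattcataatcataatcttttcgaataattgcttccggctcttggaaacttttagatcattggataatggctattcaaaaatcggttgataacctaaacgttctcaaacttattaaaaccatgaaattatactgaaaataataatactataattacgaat

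The genes related to SAUR41, a gene whose overexpression enlarges cells, did not move together. SAUR41 (AT1G16510) read 7.13, 7.59, 6.07 and 9.97 FPKM in shoot and 2.64, 3.96, 3.63 and 3.88 in root, 2.18-fold higher in shoot without overlap (log2 fold change -1.02, SE 0.17, limma adjusted p = 3.67e-04). SAUR71 (AT1G56150) had 3.12, 4.46, 2.09 and 2.23 FPKM in shoot and 0.315, 0, 0.173 and 0 in root, with 83 reads against 6 (log2 fold change -2.46, SE 0.25, limma adjusted p = 6.53e-06). SAUR72 (AT3G12830) went the other way, with 13.9, 12.0, 15.1 and 12.2 FPKM in root. In shoot it read 2.12, 7.93, 1.23 and 2.47 FPKM, so shoot library 2 stood apart and still lay below every root library. Its log2 fold change was 2.07 (SE 0.39, limma adjusted p = 7.13e-04) and 2.53 without shoot library 2. SAUR40 (AT1G79130) had 0 reads in the 4 shoot libraries and 1.24, 0, 1.26 and 1.6 FPKM in root, from 13, 0, 12 and 13 reads. It missed the filter because root library 2 had none, and against 3 reads over the shoot libraries it was at least 8.01-fold higher in root. In a fit with no filter beyond a nonzero value, over 25411 genes of which 59.3% were called, its limma adjusted p was 0.0107. Coding identity within these 4 genes was 57.7% to 67.7%.

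SAUR76, SAUR77 and SAUR78, whose products bind ethylene receptors, gave 1 gene in each class. SAUR76 (AT5G20820, chromosome 5, 7046747 to 7047446) had the largest rise in root of the 24 tested genes. It read 1.81, 1.43, 3.14 and 2.59 FPKM in shoot and 17.4, 14.1, 13.8 and 13.1 in root. The tissues were well apart, with root 6.5-fold higher (log2 fold change 2.49, SE 0.20, limma adjusted p = 8.59e-07). SAUR78 (AT1G72430) was the most abundant of the 25 in shoot, at 48.6, 58.3, 53.5 and 44.0 FPKM, and stood at 23.8, 23.3, 25.7 and 31.1 in root, 1.97-fold higher in shoot (log2 fold change -0.96, SE 0.12, limma adjusted p = 2.92e-05). SAUR77 (AT1G17345) read 4.66, 4.05, 3.48 and 3.72 FPKM in shoot and 2.49, 3.55, 3.59 and 2.87 in root, and the ranges overlapped (log2 fold change -0.31, SE 0.15, limma adjusted p = 0.0966). With library totals as the only scaling its log2 fold change was 0.18. That scaling moved the median over all tested genes from 0.07 to 0.59.

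SAUR32 and SAUR36 were the remaining genes higher in root. SAUR32 (AT2G46690), known for a role in the apical hook of dark-grown seedlings, was the most abundant of the 25 in root. It read 74.1, 65.0, 66.0 and 72.7 FPKM in root and 24, 28.7, 18.6 and 20.8 in shoot, 3.02-fold higher in root with little spread (log2 fold change 1.59, SE 0.13, limma adjusted p = 8.94e-07). SAUR36 (AT2G45210), also called SAG201 and known as a promoter of leaf senescence, read 20.6, 24, 17.8 and 16.6 FPKM in root and 10.7, 6.58, 9.84 and 6.67 in shoot (log2 fold change 1.20, SE 0.18, limma adjusted p = 1.27e-04). The lowest root library was above the highest shoot library in both genes. SAUR32 and SAUR78 were each present in both tissues at 18.6 FPKM or more in every library.

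SAUR50 (AT4G34760), a light-induced gene of cotyledon opening, read 10.7, 22.2, 13.9 and 11.8 FPKM in shoot and 3.80, 10.5, 6.94 and 4.99 in root. The highest root library almost reached the lowest shoot library (log2 fold change -1.14, SE 0.30, limma adjusted p = 0.00575). Scaled by library totals alone, the log2 fold change was -0.61 (limma adjusted p = 0.0668), no longer called. SAUR10, SAUR15 and SAUR28 fell outside the rule for named genes and are named here after their values were seen. SAUR15 (AT4G38850), known as SAUR-AC1 and a classical auxin-induced gene, read 3.57, 9.38, 5.30 and 3.75 FPKM in shoot and 0.414, 0.327, 0 and 0 in root (a log2 fold change of -3.09, SE 0.32, limma adjusted p = 6.73e-06). SAUR10 (AT2G18010), which responds to auxin and brassinosteroids, ranged from 0.924 to 4.57 FPKM in shoot and from 0 to 0.323 in root. SAUR28 (AT3G03830) ranged from 1.85 to 2.55 FPKM in shoot and had 3 root reads, all in root library 1. SAUR10 and SAUR28 were both called higher in shoot (limma adjusted p = 1.50e-04 and 3.17e-06).

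**Figure D3:**
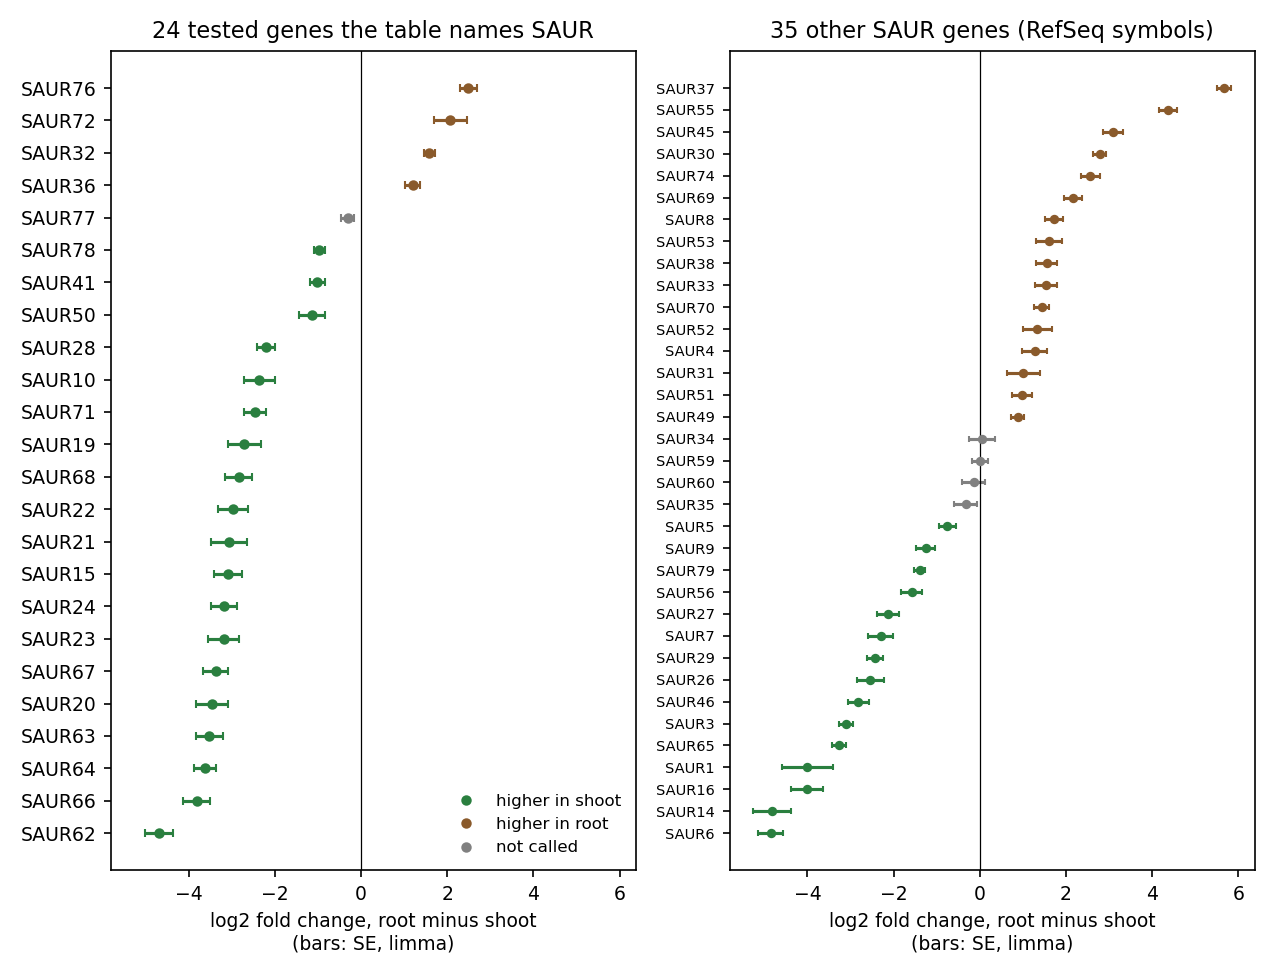
Log2 fold change, root minus shoot, on the log2(FPKM + 0.5) scale with its SE from limma, for the 24 tested genes that the table names SAUR (left) and for 35 tested genes that carry a SAUR symbol in RefSeq only (right). On the left 19 are higher in shoot and 4 in root; on the right 15 are higher in shoot and 16 in root, and with library totals as the scaling SAUR77 and SAUR60, neither called, change sign, SAUR50 and SAUR5 lose their call and SAUR59 becomes higher in root.

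The 4 shoot libraries spread widely in these genes. Among the 19 genes higher in shoot, the median ratio of the highest to the lowest shoot library was 2.48, against 1.32 over all genes called higher in shoot. Shoot library 1 was the lowest for 13 of the 19, against 30.6% of the 6500 genes called higher in shoot, and shoot library 2 was the lowest for none. Shoot library 4 was the highest for 11 and shoot library 2 for 7 of the 19, against 28.2% and 34.5% of those 6500 genes. All 6 genes of the SAUR19 group were lowest in shoot library 1, and SAUR19 itself had 0.909 FPKM there against 6.29 in library 4. The shoot marker genes stood at a median of 88.6%, 114%, 86.8% and 108% of their shoot mean in shoot libraries 1 to 4. The 19 SAUR genes had 44 to 2156 reads each over the shoot libraries. The part of these markers, and that of counting error, in the spread of the SAUR genes was not tested.

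**Figure D4:**
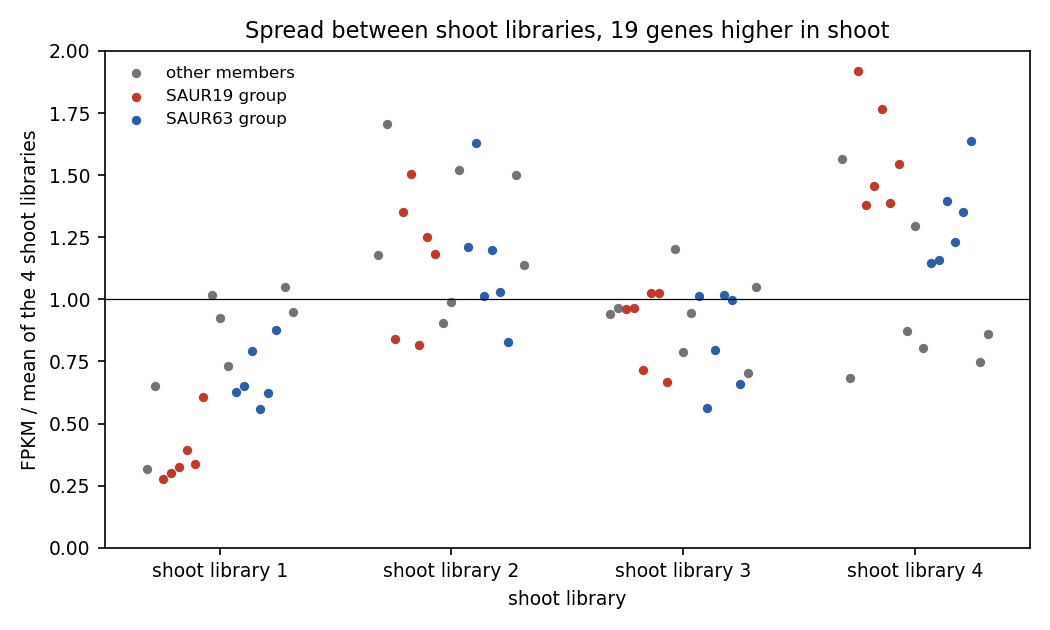
FPKM of each of the 19 SAUR genes higher in shoot, divided by its mean over the 4 shoot libraries (line at 1), by library, with the SAUR19 group in red, the SAUR63 group in blue and the other genes in grey. All red and blue points lie under 1 in shoot library 1 and above 1 in shoot library 4.

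The table names only part of the family by symbol. A further 54 genes carry a SAUR symbol in RefSeq, and 35 of them passed the filter. Of these, root had the higher level for 16 and shoot for 15, against 37.6% and 32% of all tested genes, and 4 were not called, with a median log2 fold change of 0.01. Of the 35, 7 were under 0.5 FPKM in every root library and 6 in every shoot library, against 648 and 1387 of all 20314 tested genes. Such genes passed the filter through 1 tissue alone, which required them to differ. With library totals as the scaling the counts were 18 and 14 of 36 tested, where 60% and 19.5% of all genes were called in those directions, and the median was 0.49. Among the 16, SAUR31 had overlapping levels and a limma adjusted p of 0.0377. It lost its call in several settings, among them a pseudocount of 0.1 and the replicate block (limma adjusted p = 0.0522 and 0.0540), each with 15 higher in root. The difference between this set and the 25 was not tested. The examples that follow were chosen after their values were seen. SAUR37 (AT4G31320) had 0 shoot reads and 27.4, 18.3, 28.8 and 26.5 FPKM in root. Set against 3 reads over the shoot libraries, root was at least 282-fold higher. SAUR55 (AT5G50760) read 1.89 ± 0.787 FPKM in shoot and 47.8 ± 7.74 in root (a log2 fold change of 4.37). In shoot, the light-induced SAUR14 (AT4G38840) stood at 36.3 ± 13.9 FPKM, against 0.970 ± 0.899 in root (a log2 fold change of -4.82, or -5.67 without root libraries 1 and 2). SAUR16 (AT4G38860) stood at 15.9 ± 9.43 FPKM in shoot against 0.475 ± 0.326 in root (log2 fold change -4.01). Both were highest in shoot library 2, as was SAUR50. In the chromosome 1 stretch, SAUR65 (AT1G29460) had 4.94 ± 0.535 FPKM in shoot and 3 root reads, while SAUR61 (AT1G29420) had 6 reads in shoot and 0 in root.

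The genes that act before and after SAUR proteins were split between the tissues, and these splits moved with the scaling. Over all tested genes, 37.6% were called higher in root and 32% in shoot, or 60% and 19.5% with library totals alone. Of the 6 TIR1 and AFB auxin receptor genes, root had the higher level for 2 and shoot for 1, or 4 and 0 with library totals alone. Without shoot library 1, or without root library 1, AFB1 lost its call and 1 receptor gene was higher in root. Of 5 activating auxin response factors 1 was higher in each tissue, or 4 in root and 0 in shoot with totals alone. Without root library 4, ARF8 was called and 2 were higher in root. TIR1 (AT3G62980), the most abundant receptor, read 32.3 ± 4.78 FPKM in shoot and 29.8 ± 3.08 in root and was not called (limma adjusted p = 0.453), but was higher in root with totals alone (log2 fold change 0.44). AFB2 (AT3G26810) stood at 15.9 ± 0.412 and 27.1 ± 2.00 FPKM (log2 fold change 0.75, limma adjusted p = 1.35e-05). ARF6 (AT1G30330) was higher in shoot, at 23.7 ± 2.23 against 16.2 ± 1.48 FPKM (log2 fold change -0.54, or 0.01 with totals alone). ARF19 (AT1G19220) was higher in root, at 5.39 ± 0.795 in shoot against 8.85 ± 1.65 (log2 fold change 0.66, limma adjusted p = 0.0036), and 0.49 with an adjusted p of 0.0526 in limma without root libraries 1 and 2.

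GH3 enzymes conjugate auxin to amino acids, and like SAUR genes many are auxin-induced. Of 7 tested GH3 genes, root had the higher level for 3 and shoot for 3, or 4 and 3 with totals alone. Among them, GH3.1 was under 0.5 FPKM in every shoot library and GH3.9 in every root library. Each passed the filter through 1 tissue alone, which required it to differ, so their calls add no support for a difference. GH3.5 (AT4G27260), the most abundant, was not called, at 24.5 ± 5.67 FPKM in shoot and 27.3 ± 5.49 in root, although totals alone put it higher in root (a log2 fold change of 0.70). GH3.2 (AT4G37390, named YDK1 in the table) rose from 2.38 ± 0.418 in shoot to 19.7 ± 5.05 in root (a log2 fold change of 2.79, limma adjusted p = 2.12e-07). Of the 9 PP2C.D phosphatase genes, shoot had the higher level for 3 and root for 2, or 2 and 5 with totals alone. PP2C.D1 (AT5G02760) was both the most abundant and the most different, at 71.1, 165, 102 and 118 FPKM in shoot and 3.57, 3.11, 2.83 and 3.53 in root (a log2 fold change of -4.87, SE 0.21, limma adjusted p = 7.05e-09). It was lowest in shoot library 1, as were the genes of the SAUR19 group and 30.6% of the 6500 genes called higher in shoot. PP2C.D1 was highest in shoot library 2, while the SAUR19 group sum was highest in shoot library 4. Of the 9 tested proton pump genes 4 were higher in each tissue, or 5 in root and 2 in shoot with totals alone. Leaving out single libraries ended the calls of AHA1 or AHA10 and gave 3 to 4 genes in each direction. AHA2 (AT4G30190, named HA2 in the table) read 105 ± 18.8 FPKM in shoot and 351 ± 36.5 in root. Its log2 fold change was 1.75 (limma adjusted p = 1.00e-06). AHA7 (AT3G60330) had a shoot level of 0.305 ± 0.169 FPKM and a root level of 13.0 ± 1.76, a log2 fold change of 4.08. It was under 0.5 FPKM in every shoot library and passed the filter through the root libraries alone, which required a difference. The limma adjusted p of AHA7, 8.96e-09, therefore adds no support for one.

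**Figure D5:**
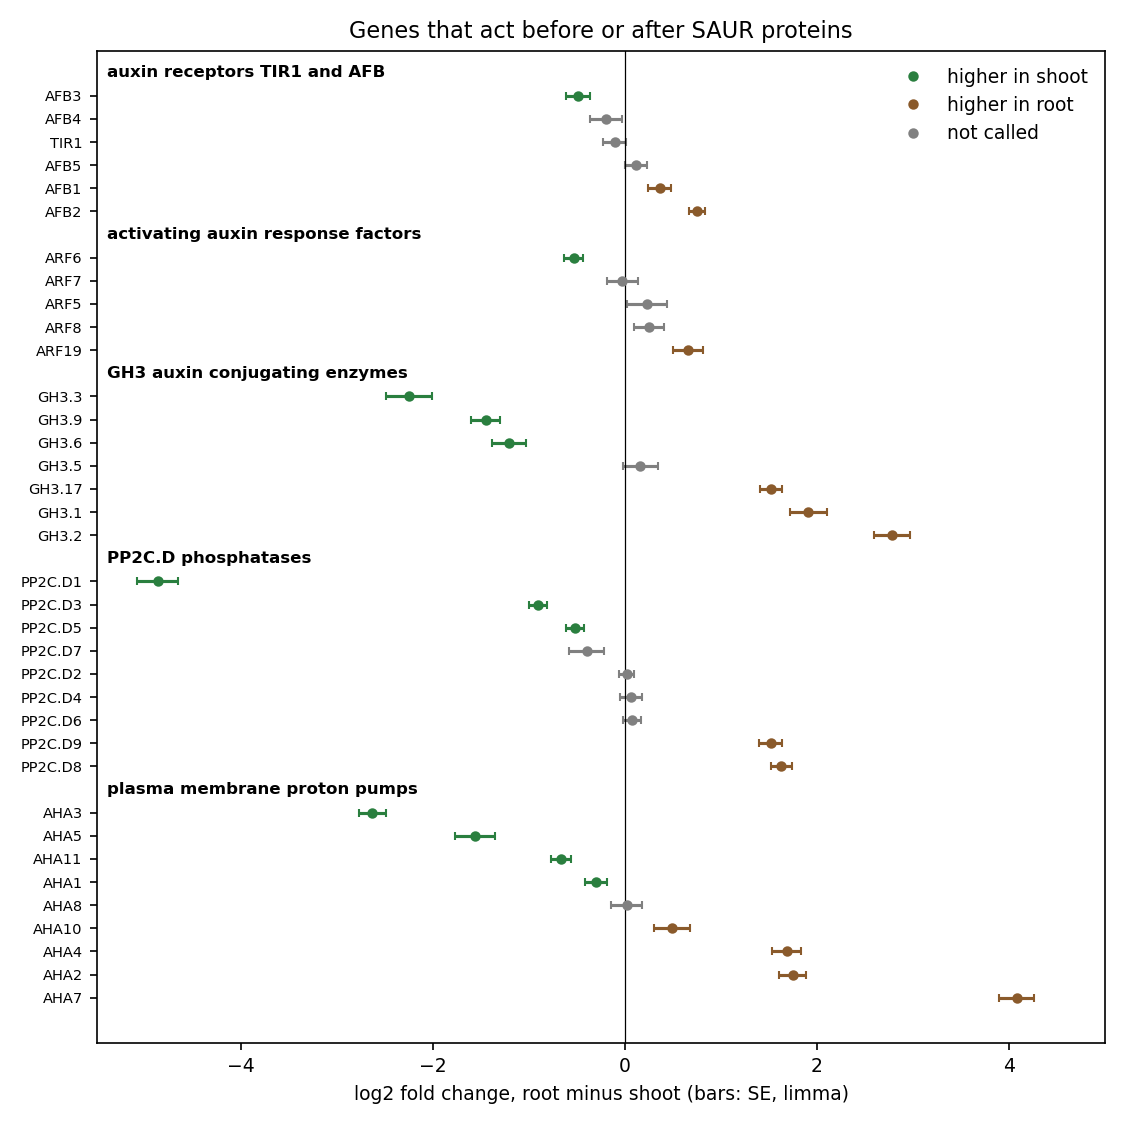
Log2 fold change, root minus shoot, with its SE from limma, of tested genes of auxin perception, auxin response, auxin conjugation, PP2C.D phosphatases and plasma membrane proton pumps. Each list holds genes higher in shoot and genes higher in root; with library totals as the scaling the receptor and response factor lists hold no gene higher in shoot.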

How the data were processed

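RNA-seq of 4 shoot and 4 root samples of Arabidopsis Col-0 was analysed, grouped by the tissue in the labels. Per the labels' protocols, poly-T beads selected the RNA, fragments of 370 to 420 bp were kept by a kit that does not mark strand, and pairs of 150 bp reads were taken. The growth protocol attached to the samples describes another species and was not used. HISAT2 2.0.5, featureCounts 1.5.0-p3 and TAIR10 were used, per the submitters' processing notes. How reads shared between copies were counted, and with which strand setting, is not given in these sources.

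The deposited values are FPKM made by the authors, although the table is named as counts. Each deposited FPKM times gene length, a column of other numbers in the deposited table, fell on whole multiples of a step that was fixed within a library, to within 4.37e-10 reads, so whole reads were recovered. Relative to the recovered reads, the library size behind FPKM was scaled by 0.770 to 0.865 for shoot libraries and by 1.18 to 1.25 for root libraries, and the method of scaling is not stated in the labels.

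Genes that reached 0.5 FPKM in 4 or more of the 8 libraries were tested on log2(FPKM + 0.5) with limma 3.58.1 (R 4.3.3) and a prior variance that follows the mean. This scale understates changes of low genes. Benjamini-Hochberg adjustment ran over 20314 genes, and an adjusted p under 0.05 was called. Members and lists were chosen with earlier results of these data known. Named genes were every member of the SAUR groups above 1 FPKM in a tissue, the most abundant, the largest changes and the smallest adjusted p, which gave 22 of 25. From each list of other genes they were the most abundant and the most changed. For a tissue without reads, folds are lower bounds computed with 3 reads over that tissue's libraries. Sequences were read from RefSeq's TAIR10.1, where 32531 of 32547 nuclear genes, and all 25 members, had the table's coordinates. No library was a copy of another (chi-square per gene 6.94 to 21.0 between replicates). Alternatives were other filters, pseudocounts and scalings, limma-voom, a replicate block and leaving out libraries.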

Additional observations from a re-analysis of the deposited data

Results flagged for a closer look

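Among 47 sets of 4 values, 1 for each SAUR gene and tissue with any spread, 3 had a library far from the other 3. Chance flags about 1 in 20 sets of spread values, a rate that does not carry over to these 3 sets, since reads in 1 library and none in the others are always set apart by this measure. SAUR22 stood at 0.257 FPKM in root library 1 and had no read in the other root libraries. SAUR23 stood at 0.237 FPKM in root library 1, again with no read elsewhere in root. SAUR28 stood at 0.327 FPKM in root library 1 and at 0 in the other root libraries. Each of these values rests on 3 reads. The shoot markers had their highest root level in the same library, at a median of 0.624% of their shoot mean against 0.155% to 0.459% in the other root libraries, and their part in these values was not tested.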

How the results depend on the processing

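Under 17 other settings, 404 of 406 log2 fold changes of single SAUR genes kept their direction and their side of the threshold. The exceptions came with library totals alone, where SAUR50 lost its call (-0.61, adjusted p = 0.0668 in limma) and SAUR77 changed sign (0.18, not called). That scaling moved the median over all tested genes from 0.07 to 0.59, and the part of that shift in both changes was not tested. The count higher in root was 4 to 5, the fifth being SAUR40 where the filter let it in, and the count higher in shoot was 17 to 19. Where libraries were left out, SAUR40, with 0 shoot reads, passed through root libraries alone, which required it to differ. Its call there adds no support for a difference. The median log2 fold change of -2.78 moved to -4.27 with a pseudocount of 0.1, -2.05 with a pseudocount of 1 and -4.58 with limma-voom on the recovered reads, since a smaller offset by construction enlarges the changes of genes near 0. Leaving out 1 library at a time gave 4 to 5 higher in root, 19 higher in shoot and medians of -2.87 to -2.56. Same-numbered shoot and root libraries deviated together with correlations of 0.0152 to 0.0710. For shoot libraries 1, 3 and 4 the same-numbered root library was the best match (0.0359, 0.0564 and 0.0710). Shoot library 2 correlated better with root library 4 (0.0238) than with root library 2 (0.0152). The labels name no pairs and these correlations are small, so the numbers were not taken as pairs. With the replicate block the counts were 4 and 19 and the median -2.78. Counting error limits the root values of the 11 genes under 0.5 FPKM in every root library.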

Other observations

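Further SAUR genes that carry their symbol in RefSeq only, chosen after their values were seen, added to both directions. SAUR30 (AT5G53590) read 4.44, 3.05, 3.25 and 4.66 FPKM in shoot and 24.2, 27.0, 32.6 and 33.2 in root, without overlap (log2 fold change 2.78). SAUR6 (AT2G21210) read 18.3, 29.9, 14.3 and 11.1 FPKM in shoot and at most 0.360 in root (log2 fold change -4.85). SAUR1 (AT4G34770) read 19.8, 24.8, 23.5 and 20.3 FPKM in shoot and 4.54, 1.61, 0 and 0.225 in root, so root libraries 1 and 2 stood above the other root libraries. Its log2 fold change was -4.00, or -4.62 without root library 1 and -5.22 without root libraries 1 and 2.

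Of the 25 genes named SAUR in the table, 17 carried the protein domain name Auxin_inducible there, and 67 genes of the table did in all.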
